A study of Mus musculus with 6 samples.

Results

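Transcripts of 8 genes of the CD2 and SLAM family were followed in CD4+ T cells with and without the histone deacetylase HDAC1. The genes were taken by symbol from the deposited count table of 55536 genes. They are Cd2, Cd48, Slamf1, Slamf6, Slamf7, Cd84 and Ly9, which encode 7 surface receptors, and Sh2d1a, which encodes SAP, an intracellular adapter of several SLAM receptors. All 8 were found once and all 8 passed the filter on low counts, which left 15519 genes for testing. The tested libraries came from 2D2-Hdac1fl/fl-Cd4-Cre+ mice (HDAC1-cKO), in which Cre under the Cd4 promoter deletes the floxed Hdac1 alleles in T cells. The WT libraries came from 2D2-Hdac1fl/fl-Cd4-Cre- mice, which carry the same floxed alleles without Cre. Both genotypes are on C57BL/6 and share the 2D2 transgene, a T cell receptor that recognises myelin oligodendrocyte glycoprotein (MOG). Naive CD45.2+ donor cells of either genotype went into the blood of CD45.1+ recipients, and 18 hours later these were immunised in the footpad with MOG35-55 emulsified in complete Freund's adjuvant (CFA). After 4 days the popliteal lymph nodes were taken and 500 2D2+ donor cells were sorted per library. Each genotype had 3 biological replicates, each pooled from 2 mice. The labels used here name no age for the mice. The cells lacked HDAC1 before transfer, so differences from before immunisation cannot be told apart from later ones.

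CD2 is an adhesion and costimulatory receptor of T cells. In mice its ligand is CD48, a lipid-anchored protein that also binds the receptor CD244. SLAMF1, SLAMF6 (Ly108), CD84, LY9 (CD229) and SLAMF7 each bind a copy of themselves on a neighbouring cell, which lets lymphocytes signal to each other. Tyrosine motifs in the tails of SLAMF1, SLAMF6, CD84 and LY9 recruit SAP, which brings in the kinase FYN, whereas SLAMF7 is known to use the related adapter EAT-2, and CD48 has no tail. SAP and SLAM receptors are known for holding T cells and B cells together in the germinal centre response.

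Total counts ran from 19956153 to 36307610 in the HDAC1-cKO libraries and from 39036751 to 55900237 in the WT libraries. Hdac1 stood at 14.7 to 17.2 CPM (counts scaled to library size) in HDAC1-cKO, against 234 to 244 CPM in WT, or 6.63% of the WT level. HDAC1-cKO replicate 2 stood apart. Across 4954 genes, the distance of its log2 CPM from the 6-library mean followed transcript GC content with r = 0.641, and r was between -0.322 and -0.0684 for each of the other 5 libraries. The defining T cell genes were abundant in both genotypes, where Cd4 ranged over 138 to 239 CPM (HDAC1-cKO) and 145 to 182 CPM (WT). Of 10 T cell markers 1, Cd3e, fell and 0 rose, where 0.992% of all tested genes fell. The summed level of 9 B cell markers was 38.9 to 77.5 CPM in HDAC1-cKO, against 21.5 to 50.3 CPM in WT, with a median log2 fold change of 0.39. Among them Cd79a ranged over 7.85 to 24.4 CPM in HDAC1-cKO, against 2.81 to 17.4 CPM in WT. Cd79b had 18.8, 25.9 and 18.6 CPM in HDAC1-cKO replicates 1, 2 and 3, against 10.5, 12.4 and 8.69 CPM in WT replicates 1, 2 and 3, without overlap (edgeR adjusted p = 0.0592). That of 14 myeloid and dendritic cell markers was 117.7 to 290.4 CPM in HDAC1-cKO, against 68.1 to 249.9 CPM in WT, of which Cd74, a gene that B cells also express, made up the most. Of the 10 tested, 8 had negative values, with a median log2 fold change of -0.83. Lyz2 ranged over 0.981 to 3.75 CPM in HDAC1-cKO, against 2.03 to 22.6 CPM in WT, Itgax stayed below 2 CPM, and Flt3, Clec9a and Csf1r were at 0 in all 6 libraries. Cd68 was higher instead, at 2.48 to 6.21 CPM in HDAC1-cKO, against 2.01 to 2.2 CPM in WT, without overlap (edgeR adjusted p = 0.153). Markers of plasma cells (5 genes) summed to 358 to 439 CPM in HDAC1-cKO, against 404 to 474 CPM in WT. Xbp1 made up most of this sum, at 346 to 414 CPM in HDAC1-cKO, against 371 to 439 CPM in WT. Sdc1, Mzb1 and Jchain reached at most 0.856, 0.29 and 0.254 CPM in any library. Markers of CD8 T cells (2 genes) summed to 65.7 to 72.3 CPM in HDAC1-cKO, against 45.4 to 59.4 CPM in WT. Cd8a had at most 2.55 CPM in HDAC1-cKO, against 2.37 CPM in WT. Cd8b1 made up the rest, at 64.6 to 71.4 CPM in HDAC1-cKO, against 45 to 57 CPM in WT. Its log2 fold change was 0.46 (edgeR adjusted p = 0.127). The 5 NK cell markers summed to at most 2.70 CPM in HDAC1-cKO, against 3.57 CPM in WT, with Ncr1 and Klra8 at 0. Of the markers of these other cell types, 0 passed the edgeR test. B cells and myeloid cells also carry several of the receptors, and their part in the values below was not tested.

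Of the 8 genes, 6 lie within 364.5 kb on chromosome 1 (chr1:171588624-171953170, GRCm38), where the SLAM receptor genes form a cluster. In order along it they are Ly9 (ENSMUSG00000004707, minus strand), Slamf7 (ENSMUSG00000038179, minus), Cd48 (ENSMUSG00000015355, plus), Slamf1 (ENSMUSG00000015316, plus), Cd84 (ENSMUSG00000038147, plus) and Slamf6 (ENSMUSG00000015314, plus). Cd2 (ENSMUSG00000027863) lies on chromosome 3 (101275899 to 101287939, minus strand) and Sh2d1a (ENSMUSG00000005696) on chromosome X (42502453 to 42529330, plus strand). The RefSeq promoter table of GRCm38.p6 held 5 of the 8 genes. The 250 bases before the start site are shown for 4 neighbouring receptor genes, because they behaved as pairs in the libraries described below (Cd84 with Slamf6, and Cd48 with Slamf1). All 4 lie on the plus strand and are printed 5′ to 3′. Capitals mark a RUNX core (TGTGGT or its reverse complement ACCACA) or an ETS motif (AGGAAG or its reverse complement CTTCCT); no match of these overlapped another.
Cd84 (chr1:171839447-171839696): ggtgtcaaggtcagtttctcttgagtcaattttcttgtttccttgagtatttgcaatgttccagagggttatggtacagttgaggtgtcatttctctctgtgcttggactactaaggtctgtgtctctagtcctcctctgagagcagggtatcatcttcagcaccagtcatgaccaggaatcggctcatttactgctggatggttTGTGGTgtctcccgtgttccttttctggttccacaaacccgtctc
Slamf6 (chr1:171917212-171917461): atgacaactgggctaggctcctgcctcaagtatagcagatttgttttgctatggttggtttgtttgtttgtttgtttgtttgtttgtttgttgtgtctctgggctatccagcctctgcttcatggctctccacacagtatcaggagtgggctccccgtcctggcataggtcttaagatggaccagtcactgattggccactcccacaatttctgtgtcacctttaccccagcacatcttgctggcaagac
Cd48 (chr1:171681742-171681991): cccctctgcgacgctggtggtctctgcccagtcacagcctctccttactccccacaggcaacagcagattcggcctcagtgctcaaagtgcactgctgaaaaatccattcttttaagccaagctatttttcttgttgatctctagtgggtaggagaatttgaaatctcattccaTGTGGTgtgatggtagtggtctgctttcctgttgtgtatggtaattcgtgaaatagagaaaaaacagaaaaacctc
Slamf1 (chr1:171766882-171767131): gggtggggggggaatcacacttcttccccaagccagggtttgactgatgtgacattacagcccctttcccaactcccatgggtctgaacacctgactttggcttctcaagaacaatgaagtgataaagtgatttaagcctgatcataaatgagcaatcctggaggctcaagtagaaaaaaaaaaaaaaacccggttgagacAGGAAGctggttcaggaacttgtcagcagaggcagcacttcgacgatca

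Cd84 and Cd48 each held 1 RUNX core, Slamf1 held 1 ETS motif, and Slamf6 held neither. Over all 32851 windows of the same length in that table, 14% held the RUNX core and 29.5% the ETS motif on either strand. Among the 4 printed windows, neither the RUNX core nor the ETS motif was shared by both genes of a pair. Each of the 4 held 1 E-box (CANNTG, where N is any base), a motif also searched for and left unmarked. Of all windows, 66.2% held an E-box. The window of Slamf7 was also held but not printed, and it had 1 ETS motif, 0 RUNX cores and 1 E-box. Slamf7 was low together with Slamf1 and Cd48 in HDAC1-cKO replicate 2, as described below. A match in a window describes the sequence and not binding. GC content of the 4 windows was 46.8% in Cd84, 48.4% in Slamf6, 46.0% in Cd48 and 47.2% in Slamf1.

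The family spanned more than 2 orders of magnitude in level. Levels between genes are compared per length on the FPKM (fragment counts scaled to transcript length and library size) that the authors deposited. Cd2 and Cd48 were the most abundant, above 98.7% or more of the tested genes. Cd2 averaged 478 ± 46.3 FPKM in HDAC1-cKO and 754 ± 39.7 FPKM in WT, and Cd48 405.5 ± 129 FPKM in HDAC1-cKO and 557 ± 32.6 FPKM in WT (SD, n = 3 each). Sh2d1a followed with 88.6 ± 22.3 FPKM in HDAC1-cKO and 113 ± 19.6 FPKM in WT. The self-binding receptors stood lower: Slamf1 averaged 31.5 ± 15.1 FPKM in HDAC1-cKO and 46.4 ± 7.07 FPKM in WT, and Slamf6 20.5 ± 4.01 FPKM in HDAC1-cKO and 35.8 ± 8.31 FPKM in WT. Cd84 averaged 7.63 ± 1.25 FPKM in HDAC1-cKO and 15.4 ± 2.98 FPKM in WT. Ly9 averaged 7.84 ± 0.0443 FPKM in HDAC1-cKO and 10.2 ± 1.83 FPKM in WT. Slamf7 was the lowest, with 1.57 ± 0.809 FPKM in HDAC1-cKO and 3.00 ± 1.58 FPKM in WT, above 37.9% of the tested genes.

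The order of the genes was nearly the same in both genotypes. In HDAC1-cKO the library ranges of Cd2 and Cd48, of Slamf1 and Slamf6, and of Ly9 and Cd84 overlapped, so these neighbours in the order were not set apart. In WT only Slamf1 and Slamf6, and Cd84 and Ly9, overlapped as neighbours, and Cd2 stood above Cd48 in each library. Cd2 and Cd48 together made up 92.4 to 93.2% of the summed FPKM of the 7 receptors in HDAC1-cKO and 91.6 to 92.9% in WT. The summed receptor FPKM was 1005, 841 and 1012 in HDAC1-cKO replicates 1, 2 and 3, against 1321, 1489 and 1453 in WT replicates 1, 2 and 3.

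**Figure D1:**
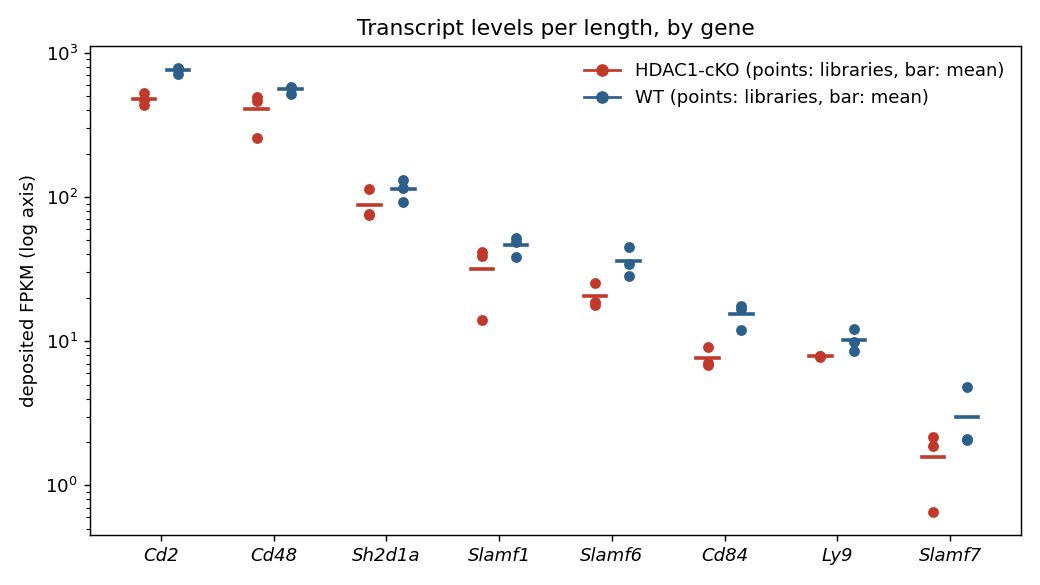
Deposited FPKM (log axis) of the 8 genes, ordered by the WT mean, with HDAC1-cKO in red on the left and WT in blue on the right of each pair; points are libraries and bars are means (n = 3 each). Cd2 and Cd48 stand above 250 FPKM in each library and Slamf7 below 5 FPKM, and each HDAC1-cKO mean lies below its WT mean.

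All 8 genes had a lower fitted level in HDAC1-cKO than in WT, and 2 of them, Cd2 and Cd84, passed the test. The median log2 fold change of the 8 was -0.60, against 0.00 over all tested genes, of which 50.3% had a negative value. The test was edgeR's quasi-likelihood F test on counts with Benjamini-Hochberg adjustment over all tested genes, and a gene was called at an adjusted p under 0.05; 0.992% of all tested genes were called lower by that rule, against 2 of the 8 here. For 5 of the 8 (Cd2, Cd48, Slamf6, Cd84 and Ly9) the 3 HDAC1-cKO libraries lay below the 3 WT libraries, which held for 11.8% of all tested genes. The members were chosen with earlier results of these data known, among them those of Cd2 and Slamf6. The counts of members here and below are therefore a description. RNA was taken from cell populations, so fewer cells that carry a transcript and less of it per cell cannot be told apart.

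Cd2 was lower in every HDAC1-cKO library. It had 508, 618 and 553 CPM in HDAC1-cKO replicates 1, 2 and 3, against 829, 911 and 894 CPM in WT replicates 1, 2 and 3. The genotypes did not overlap, and the gap between them was wider than the spread within either. For Cd2 the log2 fold change was -0.65 ± 0.11 (SE), or 63.7% of the WT level, and it fell at an edgeR adjusted p of 0.0310. It ranked 139th by p among the tested genes. The call held without HDAC1-cKO replicate 2 (adjusted p = 0.0103) and ended when any other single library was dropped (edgeR adjusted p up to 0.137), while the log2 fold change stayed between -0.74 and -0.59.

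Cd48, the ligand of CD2, was lower mainly in a single HDAC1-cKO library. It had 595, 311 and 560 CPM in HDAC1-cKO replicates 1, 2 and 3, against 628, 699 and 682 CPM in WT replicates 1, 2 and 3. Replicates 1 and 3 of HDAC1-cKO came close to the lowest WT library, and replicate 2 stood at 53.9% of their mean. The log2 fold change was -0.45 (95% interval -0.97 to 0.06, edgeR adjusted p = 0.356). With HDAC1-cKO replicate 2 left out it was -0.22 (adjusted p = 0.168). The ratio of Cd2 to Cd48 on the FPKM scale was 0.880, 2.05 and 1.02 in HDAC1-cKO replicates 1, 2 and 3, against 1.36, 1.34 and 1.35 in WT replicates 1, 2 and 3. Receptor and ligand transcripts thus kept a nearly constant proportion across the WT libraries and not across the HDAC1-cKO libraries, where 2 lay below and 1 above the WT values.

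**Figure D2:**
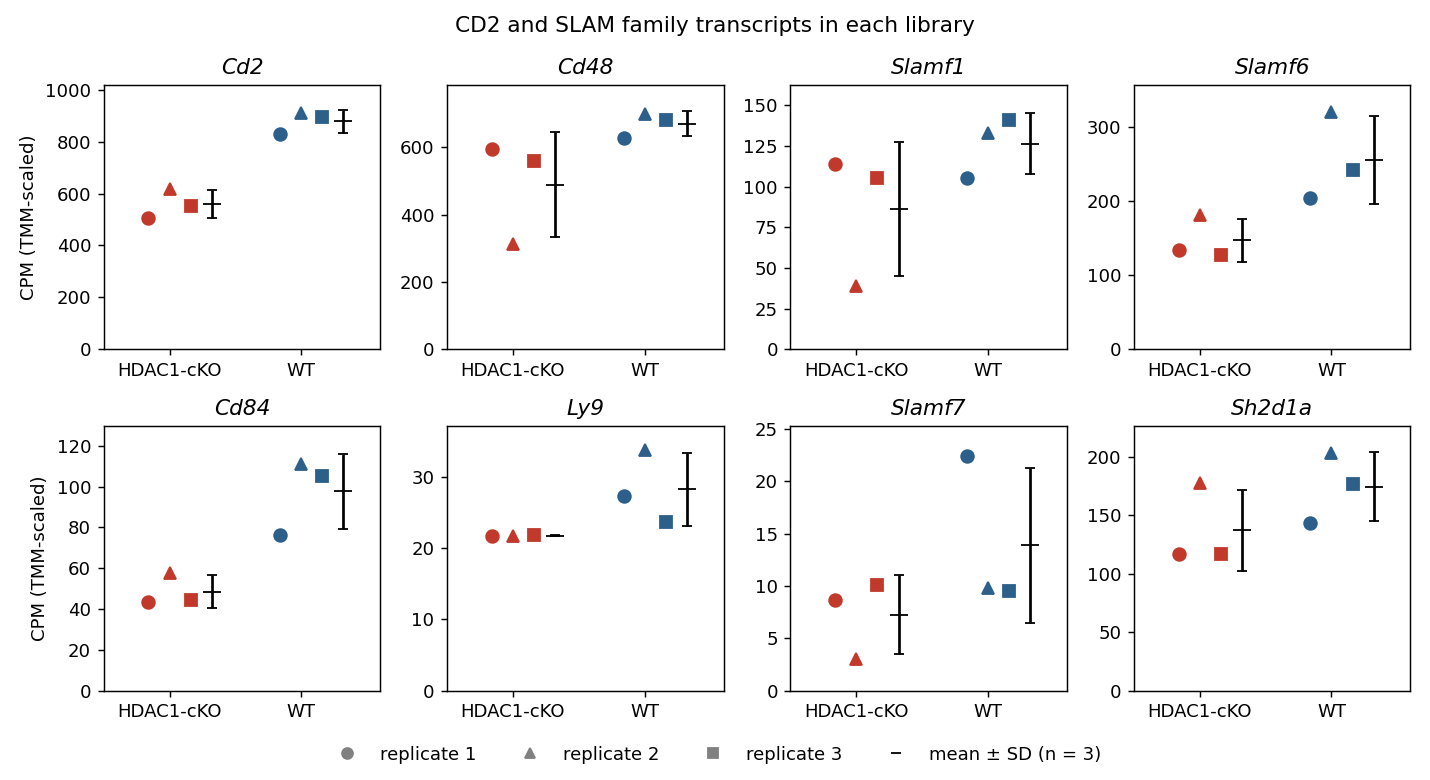
TMM-scaled CPM of each gene (linear axes from 0) in HDAC1-cKO (red, left) and WT (blue, right); marker shapes are replicate numbers and black bars are the mean ± SD (n = 3). The genotypes do not overlap for Cd2, Cd48, Slamf6, Cd84 and Ly9, and HDAC1-cKO replicate 2 (triangle) is the lowest of its group for Cd48, Slamf1 and Slamf7 and the highest for Cd2, Slamf6, Cd84 and Sh2d1a.

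Among the self-binding receptors, Cd84 had the largest difference that passed the test. CD84 is known from mice for prolonging contacts of T cells with B cells. It had 43.3, 57.8 and 44.5 CPM in HDAC1-cKO replicates 1, 2 and 3, against 76.4, 111 and 105 CPM in WT replicates 1, 2 and 3. All HDAC1-cKO libraries lay below all WT libraries. Cd84 fell to 49.8% of the WT level, a log2 fold change of -1.01 ± 0.18 (SE) with an edgeR adjusted p of 0.0371. The call held without HDAC1-cKO replicate 2 (adjusted p = 0.0228), ended when any other single library was dropped (adjusted p up to 0.154), and ended when each library's trend with GC content was removed (log2 fold change -0.72, adjusted p = 0.206). The longest Cd84 transcript has a GC content of 39.3%.

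Slamf6, a receptor of T cells that influences their contact with B cells, showed the same arrangement of libraries without passing the test. It had 134, 180 and 127 CPM in HDAC1-cKO replicates 1, 2 and 3, against 204, 319.7 and 242 CPM in WT replicates 1, 2 and 3. The groups were apart, although the WT libraries themselves spread widely. The log2 fold change was -0.79 ± 0.20 (SE, 95% interval -1.25 to -0.34, edgeR adjusted p = 0.0866). Without HDAC1-cKO replicate 2 Slamf6 was called, with a log2 fold change of -0.98 (adjusted p = 0.0385). It was also called with DESeq2 (adjusted p = 0.00346). With limma-voom, which here gave each library its own weight, it was called at -0.96 (adjusted p = 0.00794). With each library's GC trend removed it was not called, at -0.62 (adjusted p = 0.232).

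Slamf1, also known as SLAM or CD150, did not separate the genotypes. It had 114, 38.7 and 105.5 CPM in HDAC1-cKO replicates 1, 2 and 3, against 105, 133 and 141 CPM in WT replicates 1, 2 and 3. HDAC1-cKO replicates 1 and 3 lay within the WT range, and replicate 2 stood at 35.3% of their mean. The log2 fold change was -0.56 (95% interval -1.37 to 0.26, edgeR adjusted p = 0.494). Dropping HDAC1-cKO replicate 2 gave -0.21 (adjusted p = 0.447).

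Ly9, whose product LY9 is a receptor of T and B cells, had nearly identical levels in the HDAC1-cKO libraries. It stood at 21.7, 21.7 and 21.9 CPM in HDAC1-cKO replicates 1, 2 and 3, against 27.3, 33.8 and 23.7 CPM in WT replicates 1, 2 and 3. The groups did not overlap, but WT replicate 3 came close to HDAC1-cKO. Ly9 had a log2 fold change of -0.38 (95% interval -0.76 to 0.00, edgeR adjusted p = 0.295). With HDAC1-cKO replicate 2 left out it was again -0.38.

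Slamf7, a receptor of activated lymphocytes and NK cells, was the rarest and the most variable. It had 8.68, 3.02 and 10.1 CPM in HDAC1-cKO replicates 1, 2 and 3, against 22.4, 9.76 and 9.48 CPM in WT replicates 1, 2 and 3. These values rest on 113 to 283 reads in HDAC1-cKO and 360 to 1149 reads in WT. WT replicate 1 was more than 2 times as high as any other library, and the remaining WT libraries lay within the HDAC1-cKO range. Slamf7 had a log2 fold change of -0.95 (95% interval -2.09 to 0.20, edgeR adjusted p = 0.393). Dropping HDAC1-cKO replicate 2 gave -0.58, and dropping WT replicate 1 gave -0.42.

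Sh2d1a, the gene of the adapter SAP, did not separate the genotypes. It had 117, 177 and 116 CPM in HDAC1-cKO replicates 1, 2 and 3, against 144, 203 and 177 CPM in WT replicates 1, 2 and 3. HDAC1-cKO replicate 2 lay among the WT libraries, while replicates 1 and 3 lay below all of them. The log2 fold change was -0.35 (95% interval -0.81 to 0.11, edgeR adjusted p = 0.435). It was -0.59 without HDAC1-cKO replicate 2 (adjusted p = 0.0765) and 0.05 with each library's GC trend removed (adjusted p = 0.962), and its longest transcript has the lowest GC content of the 8, at 36.9%. With limma-voom and its library weights it was called lower, at -0.57 (adjusted p = 0.0338). On the other strand, exons of Tenm1 cover 26.6% of the Sh2d1a exon bases, but Tenm1 itself had at most 0.25 CPM.

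**Figure D3:**
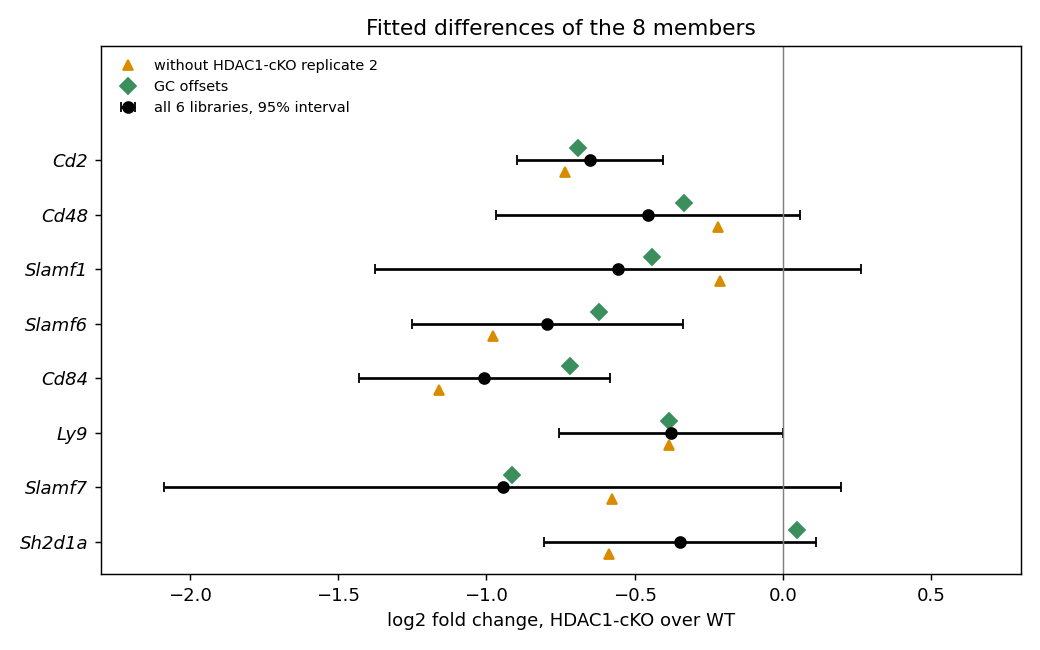
Log2 fold changes, HDAC1-cKO over WT, of the 8 genes with 95% intervals from edgeR (black, 3 libraries per genotype), without HDAC1-cKO replicate 2 (orange triangles) and with each library's GC trend removed (green diamonds). The intervals of Cd2, Slamf6 and Cd84 lie wholly below 0, and leaving out the library moves Cd48, Slamf1 and Slamf7 towards 0 and Cd2, Slamf6, Cd84 and Sh2d1a away from it.

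HDAC1-cKO replicate 2 divided the family. Relative to the mean of the other HDAC1-cKO libraries, it held 35.3% of Slamf1, 32.2% of Slamf7 and 53.9% of Cd48, but 117% of Cd2, 132% of Cd84, 138% of Slamf6 and 152% of Sh2d1a, and 99.5% of Ly9. Transcript GC content overlapped between these groups, and its part in the division was not tested. It was 40.6% for Slamf1, 46.0% for Slamf7 and 42.0% for Cd48, against 50.9% for Cd2, 39.3% for Cd84, 43.0% for Slamf6, 36.9% for Sh2d1a and 48.8% for Ly9. The ratio of Slamf6 to Slamf1 on the FPKM scale was 0.448, 1.78 and 0.459 in HDAC1-cKO replicates 1, 2 and 3, against 0.740, 0.916 and 0.656 in WT replicates 1, 2 and 3. The ratio of Sh2d1a to the sum of the 5 self-binding receptors was 0.987, 2.02 and 1.03 in HDAC1-cKO and 0.992, 1.05 and 1.02 in WT, so that it stood near 1 in 5 libraries and near 2 in this one.

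The other HDAC1-cKO libraries resembled each other. Set against the WT mean, replicates 1 and 3 held 57.8 and 62.9% of Cd2, 52.4 and 49.8% of Slamf6, 44.3 and 45.6% of Cd84, and 67.2 and 66.8% of Sh2d1a, but 88.8 and 83.7% of Cd48 and 90.1 and 83.5% of Slamf1. Ly9 stood between, at 76.9 and 77.3%, and Slamf7 was near Cd2 and Sh2d1a, at 62.5 and 72.7%. Without replicate 2, Cd2, Cd84 and Slamf6 were called lower, 3 of the 8 genes, against 2.28% of all genes tested in that fit. The differences between these genes in how far they were lowered were not tested.

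**Figure D4:**
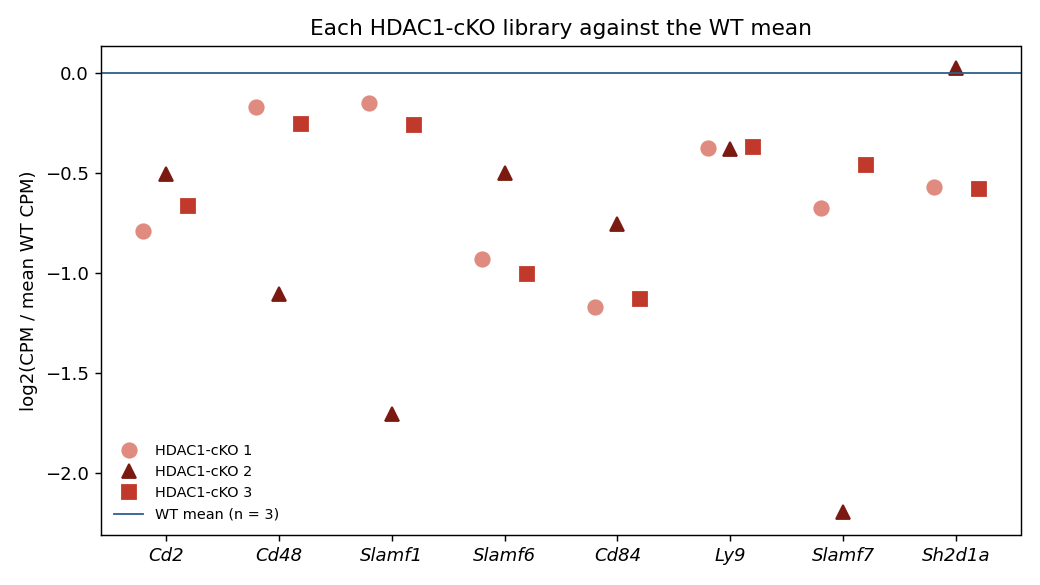
Log2 ratio of the CPM of each HDAC1-cKO library to the mean of the 3 WT libraries (blue line at 0) for the 8 genes. Replicates 1 and 3 lie close together for each gene, while replicate 2 lies far below them for Cd48, Slamf1 and Slamf7, above them for Cd2, Slamf6, Cd84 and Sh2d1a, and level with them for Ly9.

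Along the chromosome 1 cluster all 6 receptor genes had negative fold changes. From one end to the other, Ly9, Slamf7, Cd48, Slamf1, Cd84 and Slamf6 had log2 fold changes of -0.38, -0.95, -0.45, -0.56, -1.01 and -0.79. Of these, only the 95% intervals of Cd84 and Slamf6 lay wholly below 0. The same stretch holds 12 other annotated genes, pseudogenes or noncoding transcripts, of which 5 were tested, 2 had negative values and 0 passed the test. The lowest p among them belonged to Gm37010, which lies within the span of Cd48 and ranged over 7.30 to 13.8 CPM in HDAC1-cKO, against 12.2 to 17.8 CPM in WT, and to A630035G10Rik. Their log2 fold changes were -0.45 and -1.03 (edgeR adjusted p = 0.452 and 0.575). The pseudogene Tma7-ps, between Cd48 and Slamf1, had 28.5 ± 2.96 CPM in HDAC1-cKO, against 26.0 ± 2.02 CPM in WT libraries (SD, n = 3). Its log2 fold change was 0.13, and it was picked out once its value was known. The remaining tested neighbours, Gm37981 and Gm37065, had log2 fold changes of 0.57 and 0.32 and were also named with their values known. A630035G10Rik, Gm37981 and Gm37065 were near the floor, with at most 65, 23 and 93 reads in any library (at most 1.18, 0.583 and 2.49 CPM).

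**Figure D5:**
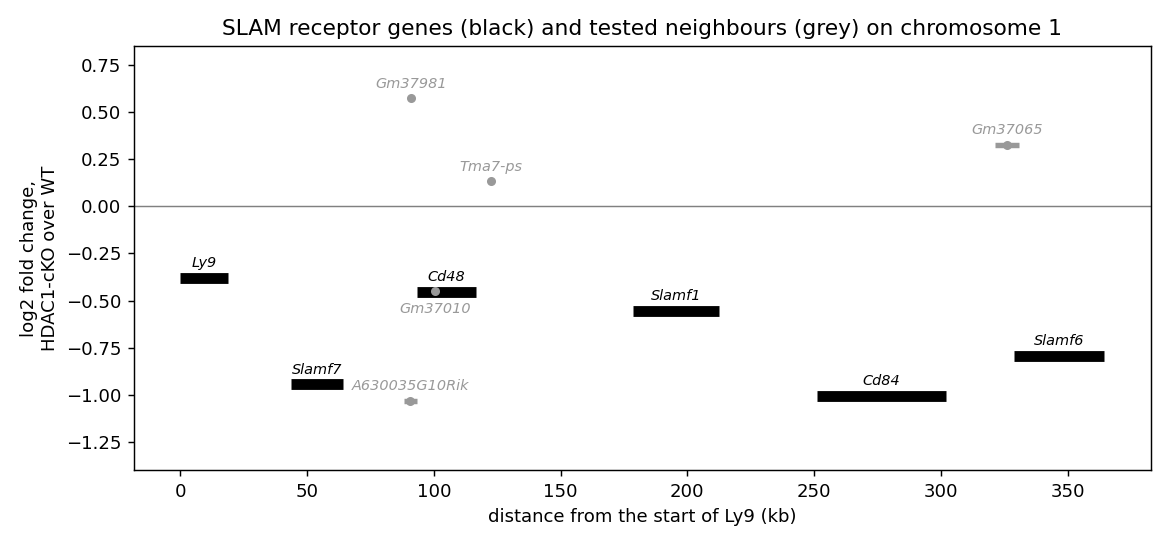
Log2 fold changes, HDAC1-cKO over WT, of the 6 receptor genes (black bars, drawn to the length of each gene) and the 5 tested neighbours (grey) against distance in kb from the start of Ly9 on chromosome 1. All 6 receptor genes lie below 0, and the neighbours lie on both sides of it. Of the neighbours, A630035G10Rik, Gm37981 and Gm37065 had at most 2.49 CPM in any library.

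The wider CD2 and SLAM signalling pathway was described with 26 gene symbols, of which 24 matched the table and 20 were tested. Over all tested genes, 0.992% fell and 50.3% had negative values. Of the 20 pathway genes 1 fell, 0 rose and 17 had negative values, with a median log2 fold change of -0.25. The gene that fell was Dok2, an adapter that dampens receptor signalling, with 118, 198 and 134 CPM in HDAC1-cKO replicates 1, 2 and 3, against 388, 342 and 384 CPM in WT replicates 1, 2 and 3. Its log2 fold change was -1.30 ± 0.19 (SE, edgeR adjusted p = 0.0249), and dropping any single library except HDAC1-cKO replicate 2 ended the call. Ptprc, which encodes the phosphatase CD45 and had the next lowest p, averaged 811 ± 54.7 CPM in HDAC1-cKO, against 1126 ± 40.3 CPM in WT libraries (SD, n = 3). Its log2 fold change was -0.47 (edgeR adjusted p = 0.0506). It was past the threshold in 10 of 18 alternatives, and with GC trends removed its value was -0.21 (adjusted p = 0.619). Among the kinases, Prkcq had 242, 262 and 216 CPM in HDAC1-cKO replicates 1, 2 and 3, against 321, 357 and 346 CPM in WT replicates 1, 2 and 3. The groups did not overlap, with a log2 fold change of -0.51 (edgeR adjusted p = 0.0602). FYN is the kinase that SAP brings in, and LCK acts early in T cell receptor signalling. Fyn averaged 62.8 ± 14.0 CPM in HDAC1-cKO, against 77.5 ± 10.7 CPM in WT libraries. Lck averaged 1358 ± 203 CPM in HDAC1-cKO, against 1564 ± 73.3 CPM in WT libraries (SD, n = 3). The log2 fold changes of Fyn and Lck were -0.30 and -0.20 (edgeR adjusted p = 0.468 and 0.460). The positive values belonged to Ptpn6, Ptpn11 and Dok1, with log2 fold changes of 0.19, 0.38 and 0.47 (edgeR adjusted p = 0.654, 0.258 and 0.584). Ptpn11 ranged over 21.3 to 26.1 CPM in HDAC1-cKO, against 16.4 to 19.6 CPM in WT, without overlap. Prkcq, Fyn, Lck, Ptpn6, Ptpn11 and Dok1 were picked out once their values were known. Of the other receptors and adapters, Slamf9, Sh2d1b1 and Sh2d1b2 were at 0 in all 6 libraries, and Cd244a, the other receptor for CD48, had 0 to 0.722 CPM in HDAC1-cKO, against 0.382 to 3.51 CPM in WT.

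SAP is known for its role in follicular helper T cells, and 15 genes of that cell type were examined beside the family. Over all tested genes, 0.992% fell and 50.3% had negative values. Of 14 tested on this list, 1 fell, 0 rose and 9 had negative values, with a median of -0.23. Btla, an inhibitory receptor, fell to 25.5, 35.9 and 26.6 CPM in HDAC1-cKO replicates 1, 2 and 3, against 56.3, 64.6 and 67.6 CPM in WT replicates 1, 2 and 3 (log2 fold change -1.10 ± 0.17, SE, edgeR adjusted p = 0.0275). Dropping any single library except HDAC1-cKO replicate 2 ended its call, as did removing the GC trends (adjusted p = 0.119). Il6ra, a chain of the interleukin-6 receptor, had a log2 fold change of -0.97 (edgeR adjusted p = 0.206). Genes of the list went both ways in HDAC1-cKO replicate 2, the library that held the most Slamf6, Cd84 and Sh2d1a among the HDAC1-cKO libraries. Those named below were picked out once their values were known. Bcl6, Cxcr5, Pdcd1 and Tcf7 stood high in that library. Bcl6, the transcription factor that directs this cell type, had 18.5, 53.9 and 18.1 CPM in HDAC1-cKO replicates 1, 2 and 3, against 27.2, 26.5 and 29.8 CPM in WT replicates 1, 2 and 3. Cxcr5, its homing receptor, had 40.7, 137 and 54.6 CPM in HDAC1-cKO replicates 1, 2 and 3, against 87.6, 101 and 65.3 CPM in WT replicates 1, 2 and 3. Pdcd1, which encodes PD-1, reached 355 CPM in HDAC1-cKO replicate 2 and Tcf7, a transcription factor of less differentiated T cells, 432 CPM, above every other library. Icos, a costimulatory receptor of the list, was instead lowest in that library, at 468 CPM. So were Il21, Cd40lg and Maf, at 14, 173 and 117 CPM. The part of these genes in the values of the family in that library was not tested.

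The genes most like Cd2 were sought among 3579 others with a mean of at least 50 CPM, leaving out gene models named only by a clone or serial number. By Pearson correlation of log2 CPM over the 6 libraries, which fall into 2 genotypes that also differ in depth, they were Nmi (r = 0.999), Jak3 (r = 0.994) and Susd3 (r = 0.994). Jak3, the kinase of the common gamma chain, had 47.3, 69.3 and 53.4 CPM in HDAC1-cKO replicates 1, 2 and 3, against 109, 115 and 116 CPM in WT replicates 1, 2 and 3. Susd3 had a log2 fold change of -0.80 and Nmi of -0.43. Because Cd2 separates the genotypes, genes chosen for following it do so as well, and these values are a description.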

How the data were processed

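For 55536 genes in 6 libraries the authors deposited raw read counts and FPKM. Per the labels' protocols, full-length cDNA was made by Smart-seq2 from polyadenylated RNA, and transposase libraries that do not mark strand were sequenced as 50-base single reads. Per the submitters' processing notes, the tools included STAR 2.5.2b, Picard 2.19.2 and DESeq2 1.24.0 under R 3.6.1, with GRCm38/mm10 and GRCh38/hg38 as builds; the read counter and its strand setting were not given in the sources used here. Coordinates of 55450 genes equal those of GENCODE M21. The deposited FPKM equalled the count times 1 constant per gene and 1 factor per library, checked on 10896 genes.

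Counts were filtered with filterByExpr, scaled by TMM and tested two-sided by edgeR 4.0.16 (quasi-likelihood, robust, R 4.3.3) over all genes, with genotype as the term. Standard errors are the fold change divided by the root of F. The test was tried on simulated counts. CPM use TMM-scaled totals. Reads carry no molecular identifiers. No library was a repeat of another within counting error, with a pairwise chi-square of 14.1 to 212 for each degree of freedom. The alternatives tried were RLE and total-count scaling, other filters, DESeq2 1.42.0, and limma 3.58.1 with voom and a weight estimated for each library. Others were limma on log2(FPKM + 1) and log2(FPKM + 0.1), thinned counts, a replicate block, GC offsets from GENCODE M21 transcripts, and leaving out each library. Members, lists and tests were chosen with earlier results of these data known, among them those of Cd2 and Slamf6. The naming rule took all 8 members; of the pathway, follicular helper and neighbour lists, the called genes, or the 2 with the lowest p where fewer were called; of the marker lists, their counts, sums and defining markers; and the 3 genes most correlated with Cd2. Cd4, Cd3e, Cd68, Cd74, Cd79b, Cd8b1, Xbp1, Sdc1, Mzb1 and Jchain were named outside it after their values were seen. Figures were drawn with matplotlib 3.10.9. Because the kit does not mark strand, Slamf7 reads cannot be told from those of Gm37787, which covers 9.2% of its exon bases and had at most 0.1 CPM. Of 50-base stretches of Slamf1, Cd84 and Sh2d1a transcripts, 2.38, 1.71 and 25.6% also occur in other genes' transcripts, in Sh2d1a mostly those of Tenm1.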

Additional observations from a re-analysis of the deposited data

How the results depend on the processing

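Over 18 alternatives, 7 of the 8 members kept a negative fold change wherever they were tested (Slamf7 was not tested with at least 10 CPM in 3 libraries). The exception was Sh2d1a, at 0.047 with GC offsets (edgeR adjusted p = 0.962). The number of members called, 2, was 3 with DESeq2, 4 with limma-voom, 1 with GC offsets, and 0 to 3 when 1 library was left out. The cause was not tested. The number of pathway genes and locus neighbours called, 1, was 2 with RLE scaling, without a low-count filter, with edgeR without robust estimation, on log2(FPKM + 1), on log2(FPKM + 0.1) and with thinned counts; it was 3 with at least 10 CPM in 3 libraries and with DESeq2, 6 with limma-voom, and 0 to 5 without 1 library. Over all genes, 306 were called; the number was 1363 with DESeq2, 1549 with limma-voom, 490 with GC offsets, and 26 to 626 without 1 library, the last without HDAC1-cKO replicate 2. With the replicate number as a block, 0 members, 0 pathway genes or neighbours and 65 genes in all were called (Cd2 and Cd84 adjusted p = 0.0676 and 0.0571). Deviations of same-numbered libraries correlated at 0.207, -0.00356 and -0.154. With 3 libraries per genotype, these values cannot settle whether the replicate numbers mark pairs. No scaling moved the median of all genes by more than 0.06 on the log2 scale. Slamf7 rested on the fewest reads of the 8, and its spread between libraries was wide in both genotypes.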
